A study of Rattus norvegicus with 12 samples.

Results

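Osteoclast and osteoblast cultures grown from the bone marrow of rats with spinal cord injury (SCI) and functional electrical stimulation (FES) of paralysed muscle were compared. The samples were those titled SCI+FES osteoclast and SCI+FES osteoblast, which are 4 of the 12 arrays in the series. Each culture type was 1 RNA pool from 3 to 4 male Wistar-Hannover rats, and each pool was hybridised to 2 Illumina rat arrays. The duplicates are therefore technical, and no spread between animals could be measured. The SCI+FES rats had their spinal cord transected, received a microstimulator in week 14 and were stimulated from week 16 for 60 minutes a day on 7 days, with contractions of 2 s at 40 Hz and 1.5 V alternating with 18 s of rest. Rats of the SCI group had the transection and the implant surgery with gastrocnemius ablation in week 14 but no stimulator unit, and were sampled in week 17. Sham rats underwent sham spinal cord injury and were sampled after 12 to 14 weeks. The sample names give culture day 3 for the SCI+FES and sham osteoclasts and day 10 for the osteoblasts, so culture type and culture time cannot be told apart. No day is given for the SCI osteoclasts, and whether pools share animals is not stated, though the original names of the SCI osteoclast pool and of both SCI+FES pools carry the same number.

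Osteoclasts are multinucleated cells of the monocyte lineage that resorb bone. They form when macrophage colony-stimulating factor (Csf1) and RANK ligand (Tnfsf11) from stromal and osteoblastic cells act on the receptors Csf1r and RANK (Tnfrsf11a), and osteoprotegerin (Tnfrsf11b) blocks RANK ligand as a decoy. They seal off a patch of bone, acidify it through a vacuolar proton pump and a chloride channel, and digest the collagen with cathepsin K. Osteoblasts arise from mesenchymal stromal cells, lay down type I collagen and mineralise it. Marrow cultures of both kinds can also hold macrophages and other blood cells.

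The 4 SCI+FES arrays detected between 33.7% and 38.3% of probes at a detection p of at most 0.01. The 2 osteoclast arrays were the dimmest of the series, with 75th percentiles of the signal of 86.3 and 84.9, against 109 to 147 on the other osteoclast arrays and 126 to 204 on the osteoblast arrays. After normalisation the duplicates correlated across genes at 0.9956 for SCI+FES osteoclasts and 0.9966 for SCI+FES osteoblasts, and 0 genes differed 2-fold between the duplicates of any pool. Depth in the sense of read counts does not exist for arrays, so the 2 arrays per pool limit the precision.

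With 1 pool per culture type no test between the SCI+FES pools was possible. A gene was called higher or lower by a rule of size, which asks for at least 2-fold between the pool means, both arrays of the brighter pool above both of the dimmer one, and detection on both arrays of at least 1 pool. Differences are osteoclast minus osteoblast on the log2 scale, given ± a standard error from the 2 arrays of each pool, so the error holds no variation between animals. Where the dimmer pool was not detected on both arrays, the fold is a lower bound, written as "at least". The log2 difference of such a gene includes a background reading, also where no bound is printed. The spread between pools was taken from a limma fit of the 3 osteoclast against the 3 osteoblast pools (sham, SCI and SCI+FES), and its adjusted p is given as the adjusted p over pools.

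Of 8168 genes tested after SCI+FES, 372 (4.55%) were higher in the osteoclast pool and 577 (7.06%) were lower. The difference was at least 8-fold for 141 genes. In the gene lists below only members detected in at least 1 pool could be counted, so their counts are descriptions to be set beside these shares. The fit over pools called 434 of 8900 genes higher in osteoclasts (4.88%) and 590 lower (6.63%) at an adjusted p of at most 0.05 and 2-fold. Without the SCI pools the same fit called 196 and 294. The fit's calls held 301 of the 372 genes that were higher after SCI+FES (80.9%) and 463 of the 577 that were lower (80.2%). Because the SCI+FES pools are 1 of the 3 pairs in the fit, this overlap is partly built in. Without the SCI+FES pools the fit called 519 and 661 genes, and the overlap with those was not counted. Centring the arrays on a common median over all probes shifted the median difference of the tested genes from 0.05 to -0.31, and left 177 genes higher and 883 lower, so that 16.7% of the calls were higher in place of 39.2%.

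To check the culture labels, the levels of fixed marker genes were summed in each array. The 6 osteoclast markers with a probe summed to a normalised signal of 61266 to 64549 on the osteoclast arrays and 4743 to 5029 on the osteoblast arrays. Of the 10 osteoblast markers, 3 were detected in the osteoblast pool (Alpl, Ibsp and Col1a1) and 0 in the osteoclast pool. Their sum was 4238 to 4536 on the SCI+FES osteoblast arrays, against 9305 to 9527 on the sham and 18108 to 19388 on the SCI osteoblast arrays. Runx2 and Sp7, which encode the transcription factors that commit cells to the osteoblast lineage, and Dmp1, Phex, Ifitm5 and Panx3 were detected on none of the 4 SCI+FES arrays. The markers detected in the osteoblast pool were therefore genes of the matrix and of mineralisation.

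Markers of other cells were detected in both SCI+FES pools, but not those of every cell type in each pool. The 10 macrophage markers with a probe summed to 48424 to 49571 in the osteoclast pool and 95585 to 99304 in the osteoblast pool, with 8 and 9 of them detected. The 5 smooth muscle or myofibroblast markers summed to 25228 to 25500 in the osteoblast pool and 452 to 473 in the osteoclast pool, where 0 were detected. The 6 T or NK cell markers summed to 3500 to 3586 in the osteoblast pool and 1091 to 1101 in the osteoclast pool, and the 5 neutrophil markers to 447 to 487 and 4482 to 4517. Lists of mast cell markers (1354 to 1411 in osteoblasts, 519 to 522 in osteoclasts), adipocyte markers (2099 to 2143 and 9158 to 9252) and erythroid markers (304 to 330 and 1726 to 1797) also differed. In the osteoclast pool the adipocyte sum was mostly Fabp4 and the neutrophil sum mostly S100a8. Adipoq, Lep, Plin1, S100a9 and Ltf were detected on none of the 4 arrays, so these sums do not stand for whole marker sets. The B cell markers (307 to 344 and 426 to 497) and endothelial markers (735 to 756 and 673 to 688) were closer between the pools. In the osteoblast pool 0 neutrophil, 0 erythroid and 0 B cell markers were detected on both arrays, so those sums are background readings. The megakaryocyte markers summed to 18441 to 19581 and 16724 to 18112, although 2 of the 3 were higher in osteoclasts and 0 lower. In pooled bulk RNA, fewer cells of a type and less RNA per cell cannot be told apart, and the part of other cells in each result was not tested.

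**Figure D1:**
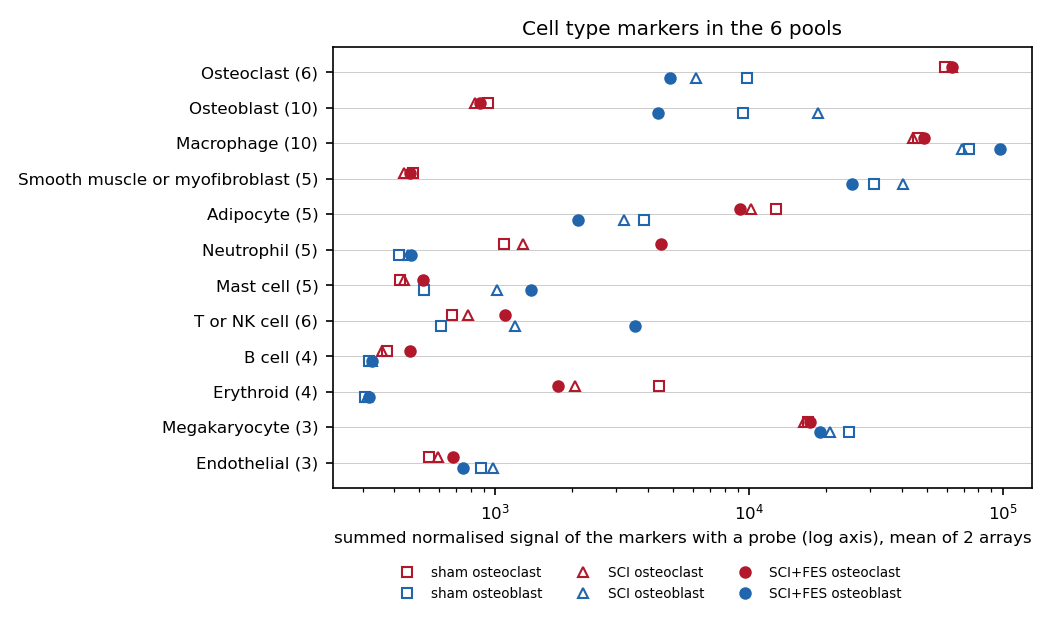
Summed normalised signal of fixed marker genes (log axis, mean of 2 arrays) in the osteoclast (red) and osteoblast (blue) pools, filled for SCI+FES and open for sham (squares) and SCI (triangles), with the number of markers that have a probe in parentheses. The SCI+FES osteoblast pool has the lowest osteoblast sum (4238 to 4536 per array) and the highest macrophage (95585 to 99304) and T or NK cell sums (3500 to 3586) of the osteoblast pools.

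Genes of the resorption machinery were higher in the SCI+FES osteoclast pool. Of 10 detected resorption effectors 9 were higher in osteoclasts and 0 lower, with a median difference of 2.80 against 0.05 over all genes tested. Mmp9, the gelatinase of osteoclasts, read 14.29 and 14.15 on the osteoclast arrays and 7.59 and 7.70 on the osteoblast arrays. The duplicates lay close together and the pools far apart, by 6.58 ± 0.09 (95.4-fold, adjusted p over pools 2.6e-05). Ctsk, which encodes cathepsin K, read 15.14 and 15.08 against 12.02 and 11.92, a difference of 3.14 ± 0.06 (8.79-fold, adjusted p over pools 0.000785). The creatine kinase gene Ckb (3.08 ± 0.05), the anion exchanger gene Slc4a2 (3.00), the chloride channel gene Clcn7 (1.64) and its partner Ostm1 (1.23) were also higher. The 10th effector, the membrane protease gene Mmp14, was at -0.03.

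The proton pump followed the effectors in part of its subunits. Of 18 detected V-ATPase genes 11 were higher in osteoclasts and 0 lower, with a median of 1.21. Atp6v0d2, the d2 subunit enriched in osteoclasts, read 12.92 and 12.94 on the osteoclast arrays and 8.52 and 8.53 on the osteoblast arrays, a difference of 4.41 ± 0.01 (21.2-fold, adjusted p over pools 2.9e-05). Tcirg1, the a3 subunit of the pump at the ruffled border, differed by 2.59 ± 0.08, Atp6v1h by 2.28 ± 0.12 and Atp6v1a by 2.09 ± 0.06. The widely expressed d1 subunit gene Atp6v0d1 was at 0.54 and Atp6v0a1 at -0.22, neither past the rule. Car2, the carbonic anhydrase that supplies the protons, read 12.07 and 12.00 against 10.28 and 10.27, a difference of 1.76 ± 0.03. In sham and SCI the same gene differed by 4.97 and 3.91. Its osteoclast pool means were 12.9 in sham, 12.2 in SCI and 12.0 after SCI+FES, and its osteoblast means 7.93, 8.28 and 10.3. The level thus varied more between the osteoblast pools than between the osteoclast pools. The test of this departure gave an adjusted p of 0.618.

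Of 14 detected receptors, fusion proteins and transcription factors of the osteoclast 8 were higher in osteoclasts and 0 lower, with a median of 1.07. The fusion protein gene listed as Tm7sf4 read 10.05 and 9.95 against 7.43 and 7.44 (2.56 ± 0.05). Siglec15, a sialic acid receptor that signals through DAP12, differed by 2.33 ± 0.26 (at least 2.90-fold) and Oscar, a collagen receptor, by 2.01 ± 0.03 (at least 3.45-fold). Spi1, which encodes the transcription factor PU.1, differed by 1.30 ± 0.03, a call that ended with a common median over all probes. Tnfrsf11a, the RANK gene, read 7.43 and 7.36 against 7.21 and 6.91, and its difference of 0.34 ± 0.15 did not pass the rule. Calcr, the calcitonin receptor gene, was detected on 1 of the 4 SCI+FES arrays, an osteoclast array. Acp5, Nfatc1, Itgb3 and Csf1r were not analysed here.

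**Figure D2:**
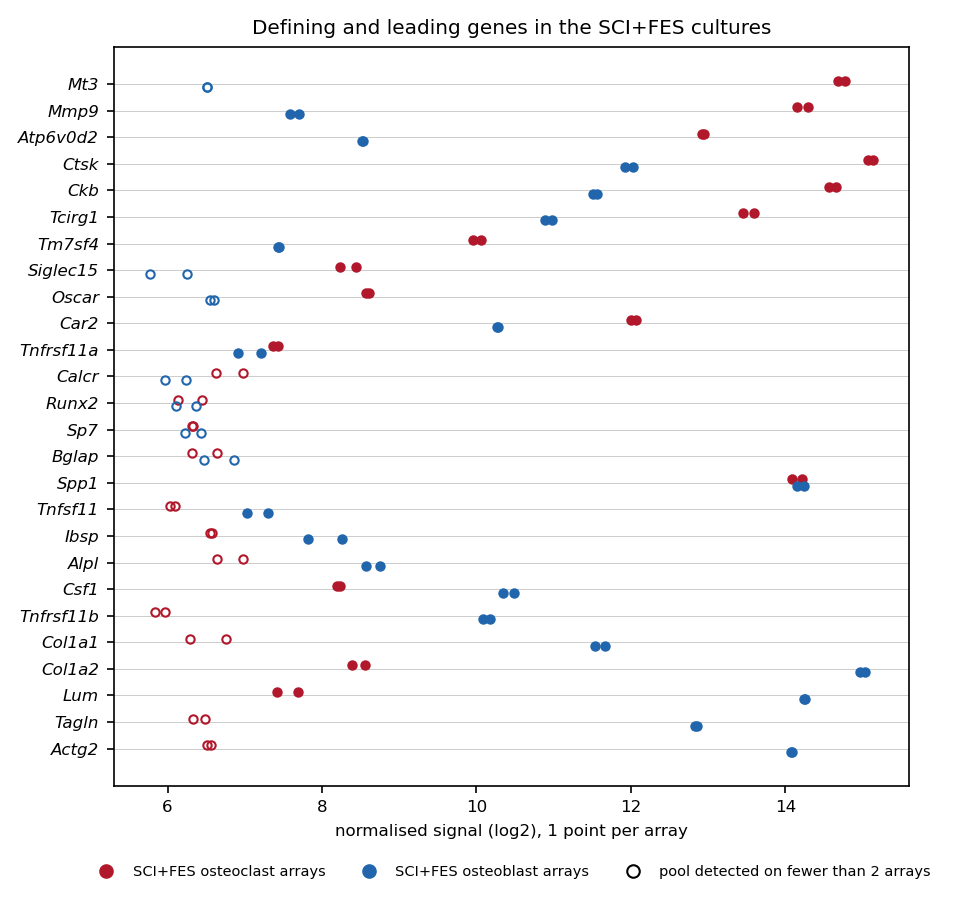
Normalised signal (log2, horizontal axis) of defining and leading genes on the 2 osteoclast (red) and 2 osteoblast (blue) arrays after SCI+FES, with open points where a pool was detected on fewer than 2 arrays. Duplicates nearly coincide, resorption genes such as Mmp9 (14.29 and 14.15 against 7.59 and 7.70) lie apart in one direction, matrix and contractile genes in the other, and Runx2 and Sp7 are open in both pools.

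The promoters of Ctsk, Oscar and Siglec15 are shown because these 3 osteoclast genes hold the core of the PU.1 motif, GAGGAA, within 250 bases before to 50 bases after their start. The sequences are those of RefSeq on GRCr8, written along the gene, and capitals mark each match as written or as its reverse complement.
Ctsk: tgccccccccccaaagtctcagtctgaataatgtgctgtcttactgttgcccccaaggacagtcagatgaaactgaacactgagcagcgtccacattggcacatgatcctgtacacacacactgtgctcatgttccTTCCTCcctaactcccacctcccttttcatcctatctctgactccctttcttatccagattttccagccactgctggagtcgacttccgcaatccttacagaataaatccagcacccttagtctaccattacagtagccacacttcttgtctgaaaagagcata
Oscar: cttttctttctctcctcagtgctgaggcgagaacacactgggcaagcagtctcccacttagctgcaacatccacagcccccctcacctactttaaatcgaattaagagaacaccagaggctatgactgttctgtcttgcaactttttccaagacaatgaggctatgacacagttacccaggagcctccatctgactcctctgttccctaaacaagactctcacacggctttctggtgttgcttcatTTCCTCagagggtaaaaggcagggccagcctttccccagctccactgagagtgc
Siglec15: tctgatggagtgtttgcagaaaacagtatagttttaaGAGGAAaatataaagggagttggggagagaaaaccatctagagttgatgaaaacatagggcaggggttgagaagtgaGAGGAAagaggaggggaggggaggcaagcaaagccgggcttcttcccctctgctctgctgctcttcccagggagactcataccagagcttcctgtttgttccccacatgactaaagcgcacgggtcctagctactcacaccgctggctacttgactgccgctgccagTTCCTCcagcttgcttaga
The Ctsk promoter lies at chr2:185747298-185747597 on the plus strand, that of Oscar at chr1:74522633-74522932 on the plus strand and that of Siglec15 at chr18:73796965-73797264 on the minus strand. The match lay at -114 to -109 from the start of Ctsk and at -4 to 2 in Oscar, and Siglec15 held 3 matches. Among the detected receptors, fusion proteins and transcription factors with an entry in the promoter table, 7 of 8 held the motif on either strand, and among the resorption effectors 2 of 6 did. It occurs in 27.5% of the 27457 promoters of this length, so the letters alone are common. The AP-1 motif TGANTCA was found in 1 of these 8 (Trem2) and in 0 of the 6, against 7.33% of all promoters. The letters of these motifs do not contain one another, and a match is a description of the sequence.

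Lysosomal genes in general did not separate the pools to the same degree. Of 25 detected lysosomal proteases and membrane proteins 5 were higher in osteoclasts and 0 lower, with a median of 0.28. Napsa, an aspartic protease, differed by 3.72 ± 0.10 (13.2-fold), Gusb, beta-glucuronidase, by 2.69 ± 0.08 and Gla, alpha-galactosidase, by 2.17 ± 0.12. The cathepsin genes Ctsb (-0.23), Ctss (-0.19) and Ctsl (0.28) and the membrane protein genes Lamp1 (-0.88) and Lamp2 (-0.67) did not pass the rule.

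The single largest difference towards osteoclasts belonged to Mt3, which encodes a metallothionein known from the brain. Mt3 read 14.68 and 14.78 on the osteoclast arrays and 6.51 on both osteoblast arrays, which did not detect it, a difference of 8.22 ± 0.05 (at least 244-fold, adjusted p over pools 2.4e-05). It was near this level in the sham and SCI osteoclast pools (14.7 and 14.6). Mt1, a widely expressed metallothionein, was at -0.74. Other genes among the 15 largest were Gal, the precursor of the neuropeptide galanin (4.71 ± 0.09), Cym, the aspartic protease chymosin (3.90 ± 0.10), the creatine transporter gene Slc6a8 (3.76 ± 0.05), the sugar phosphate exchanger gene Slc37a2 (3.51 ± 0.09) and the myosin gene Myo1d (3.44 ± 0.10). A pair of the 15 is listed only by locus names, RGD1560676 (6.27 ± 0.14) and LOC684525 (4.41 ± 0.06).

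Among the 15 largest differences towards osteoblasts were Lum, Dcn, Col3a1, Col1a2, Sparc, Thbs2 and Lox, which encode matrix proteins or their processing enzymes. Of 16 detected collagens 13 were lower in osteoclasts and 0 higher, with a median of -3.96. Col1a2, a chain of type I collagen, read 15.04 and 14.97 on the osteoblast arrays and 8.56 and 8.39 on the osteoclast arrays, a difference of -6.53 ± 0.09 (92.3-fold). Col3a1 differed by -6.55 ± 0.14 (at least 64.5-fold), Col5a2 by -5.68 ± 0.08 and Col1a1, which the osteoclast arrays did not detect, by -5.08 ± 0.24 (at least 24.7-fold). Of 19 detected genes of collagen processing and crosslinking 10 were lower and 0 higher, led by the lysyl oxidase gene Lox (-5.87 ± 0.20), the procollagen protease enhancer Pcolce (-5.41 ± 0.08), the collagen chaperone Fkbp10 (-5.05 ± 0.08) and Loxl1 (-4.56 ± 0.15).

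Of 24 detected matricellular and adhesive glycoproteins 20 were lower in osteoclasts and 0 higher, with a median of -2.79. Sparc, osteonectin, read 13.47 and 13.45 on the osteoblast arrays and 6.98 and 7.27 on the osteoclast arrays (-6.34 ± 0.15). Thbs2, thrombospondin 2, differed by -6.15 ± 0.17 (at least 49.6-fold), Ccn2 by -5.67 ± 0.04 and Mgp, the matrix Gla protein that inhibits calcification, by -5.00 ± 0.13. The Mgp difference was -1.46 in sham and -3.53 in SCI, and its departure had an adjusted p of 0.727. Among 21 detected matrix proteases and inhibitors 10 were lower and 2 higher. The first group included Timp1, an inhibitor of matrix metalloproteinases (-3.65 ± 0.08), while Mmp9 and Mmp8 (2.46 ± 0.01) made up the second.

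All 6 detected small leucine-rich proteoglycans, which coat collagen fibrils, were lower in osteoclasts, with a median of -3.11. Members of this list detected in sham numbered 9, and in SCI also 9, of which 9 and 8 were lower. Lum, lumican, read 14.26 and 14.24 on the osteoblast arrays against 7.69 and 7.42, a difference of -6.69 ± 0.14, and Dcn, decorin, differed by -6.61 ± 0.26. For the same 6 genes the median was -5.82 in sham and -5.71 in SCI. Aspn, asporin, accounted for part of this. It read 9.57 and 9.43 on the SCI+FES osteoblast arrays, against pool means of 12.7 in sham and 12.4 in SCI osteoblasts, and its difference was -3.07 ± 0.24 against -6.56 and -6.03. Ogn, osteoglycin, behaved alike, with -3.02 ± 0.07 (at least 3.62-fold) against -6.38 and -5.38. The departures had adjusted p of 0.285 and 0.577.

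Contractile genes were the second large group on the osteoblast side. Of 11 detected smooth muscle and myofibroblast genes 9 were lower in osteoclasts and 0 higher, with a median of -1.95, against -3.44 in sham and -3.09 in SCI for the same genes. Actg2, the smooth muscle gamma actin, gave the largest difference in this direction of any gene. It read 14.09 and 14.08 on the osteoblast arrays and 6.51 and 6.56 on the osteoclast arrays, a difference of -7.55 ± 0.03 (at least 138-fold, adjusted p over pools 4.11e-06). Tagln, transgelin, differed by -6.44 ± 0.08 (at least 58.5-fold), Cald1, caldesmon, by -4.79 ± 0.04 and Myl9, a myosin light chain, by -3.81 ± 0.16. The CArG box, the motif of serum response factor, was found in the promoters of 0 of 8 detected genes with an entry in the table, against 1.64% of all promoters.

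Tnfrsf11b, osteoprotegerin, read 10.09 and 10.17 on the osteoblast arrays and 5.83 and 5.97 on the osteoclast arrays, which did not detect it, a difference of -4.23 ± 0.08 (at least 8.91-fold, adjusted p over pools 9.9e-05). Csf1 read 10.49 and 10.34 against 8.19 and 8.23 (-2.21 ± 0.08, adjusted p over pools 0.00137). Tnfsf11, RANK ligand, read 7.30 and 7.03 on the osteoblast arrays and 6.04 and 6.09 on the osteoclast arrays. Its difference of -1.10 ± 0.14 was at least 1.14-fold, stood at 0.05 in sham and -0.02 in SCI, and lost its call under 2 other normalisations and without 1 osteoblast array. Cxcl12, the chemokine that holds haematopoietic cells in the marrow, read 13.41 and 13.38 against 6.39 and 6.73 (-6.84 ± 0.17, at least 85.8-fold). Fstl1, a follistatin-like glycoprotein (-7.18 ± 0.15), Gja1, connexin 43 (-6.76 ± 0.14), and the BMP antagonist gene Grem1 (-6.06 ± 0.18, at least 49.0-fold) were of the same order.

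In the wider pathways the calls leaned the same way. Of 23 detected BMP and TGF-beta genes 7 were lower in osteoclasts and 1 higher, the BMP target Id1 (1.57 ± 0.10). Besides Grem1, the latent TGF-beta binding protein genes Ltbp2 (-2.52 ± 0.11) and Ltbp1 (-2.41 ± 0.31) and follistatin, Fst (-2.40 ± 0.05), were lower. Of 11 detected Wnt genes 3 were lower and 0 higher, namely the receptor gene Fzd1 (-3.60 ± 0.04), the antagonist gene Sfrp4 (-2.08 ± 0.07) and the ligand gene Wnt5a (-1.74 ± 0.11). Of 6 detected IGF system genes 3 were lower, with Igfbp7 at -5.13 ± 0.05, and 1 was higher, the receptor gene Igf2r at 1.34 ± 0.11, whose call ended with a common median over all probes. Of 11 stromal support factors 5 were lower and 0 higher, and of 13 junction and mesenchymal surface genes 6 were lower and 0 higher, including Itga11 (-4.73 ± 0.12), Thy1 (-4.37 ± 0.05) and Nt5e (-4.18 ± 0.09).

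Osteoblast genes proper differed less than the matrix genes. Of 16 detected osteoblast markers 7 were lower in osteoclasts and 1 higher, with a median of -0.73. The same genes had medians of -1.35 in sham and -0.94 in SCI. Of the 19 members detected in sham 13 were lower, and of the 21 detected in SCI 13 were lower. Alpl, alkaline phosphatase, read 8.74 and 8.57 on the SCI+FES osteoblast arrays and 6.64 and 6.98 on the osteoclast arrays, a difference of -1.85 ± 0.19, against -3.61 in sham and -4.60 in SCI. Its osteoblast pool mean was 10.2 in sham and 11.4 in SCI. Ibsp, bone sialoprotein, differed by -1.47 ± 0.22, against -1.29 and -3.36. Bglap, osteocalcin, was detected on 1 of the 4 SCI+FES arrays, an osteoblast array, and differed by -1.11 in sham and -3.02 in SCI. Spp1, osteopontin, which both lineages make, read 14.08 and 14.22 in osteoclasts and 14.15 and 14.24 in osteoblasts, so the pools overlapped.

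Some genes that were detected in the SCI osteoblast pool were low after SCI+FES. Panx3, a channel protein of osteoblasts, read 6.43 and 6.35 on the SCI+FES osteoblast arrays against a pool mean of 11.8 in SCI and 7.49 in sham, and Ifitm5, a membrane protein of osteoblasts, 6.44 and 6.48 against 10.7 and 7.51. The SCI osteoblast pool was thus the one that stood apart. Their culture type differences were -0.42 ± 0.08 and -0.31 ± 0.08 after SCI+FES, -1.27 and -1.31 in sham, and -5.99 and -4.48 in SCI. Their departures had adjusted p of 0.799 and 0.773. Penk, proenkephalin, and Aard differed by -3.76 and -3.66 in sham, by -3.62 and -3.98 in SCI, and by -0.94 ± 0.16 and -1.02 ± 0.02 after SCI+FES, each departure with an adjusted p of 0.285. The SCI+FES osteoclast arrays detected neither gene, so the folds were at least 1.46 for Penk and at least 1.07 for Aard. The SCI+FES call of Aard ended under 2 other normalisations.

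Whether the culture type difference after SCI+FES departed from that of the other treatments was tested for every gene by limma, against the mean of the sham and SCI differences. The 3 pairs share no arrays. At an adjusted p of at most 0.05, 0 of 8900 genes (0%) departed. The lowest adjusted p was 0.239, and 598 genes (6.72%) had an unadjusted p under 0.05. The test rests on 1 residual degree of freedom. With a common median over all probes 9 genes departed, of which Prg2, Aspn, Penk and Aard did so towards osteoclasts and Cxcl13, Plac8, Mx1, Irf7 and Oasl towards osteoblasts. Without a detection filter 1 did, Prg2 (adjusted p 0.0306). The values that follow are therefore descriptions of 3 pairs of pools.

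Fewer genes passed the rule of size after SCI+FES than in the other pairs. In sham 707 of 8444 genes (8.37%) were higher in osteoclasts and 796 (9.43%) lower, and in SCI 531 of 8188 (6.49%) and 725 (8.85%). Over the 8900 genes the standard deviation of the difference was 0.83 after SCI+FES, 1.01 in sham and 0.96 in SCI. The differences correlated across genes at 0.80 with sham and 0.90 with SCI, and those of sham and SCI at 0.89. Of 411 genes higher in osteoclasts in both sham and SCI, 253 (61.6%) were higher after SCI+FES, and they made up 68.0% of its 372 calls. Of 574 lower in both, 428 (74.6%) were lower after SCI+FES, which is 74.2% of 577. The part of the lower signal of the SCI+FES osteoclast arrays in these counts was not tested.

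**Figure D3:**
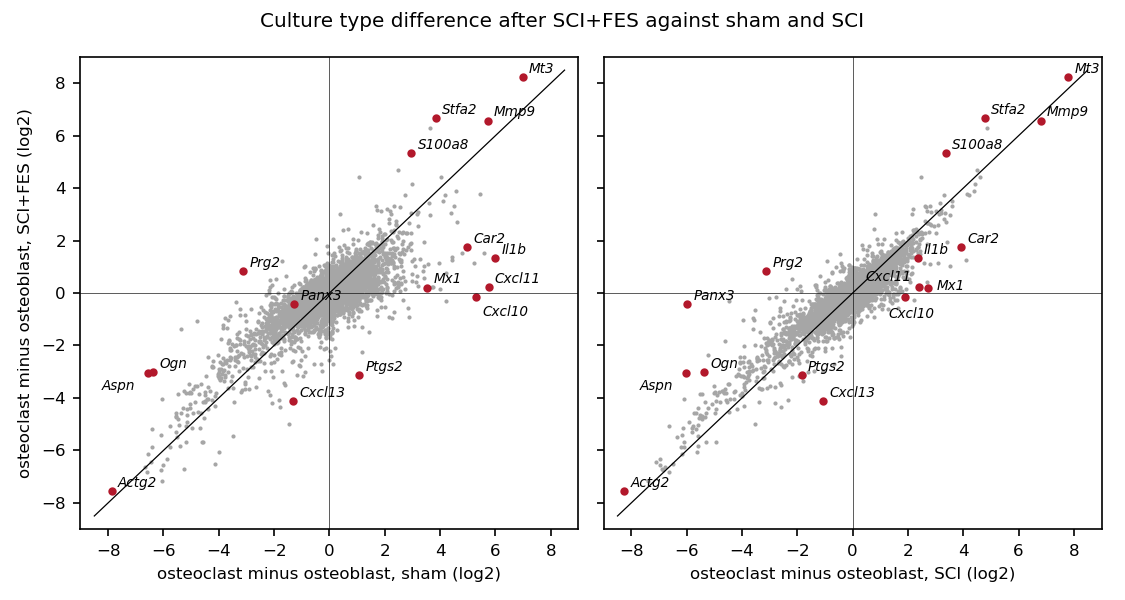
Osteoclast minus osteoblast difference (log2) of 8900 genes after SCI+FES (vertical) against sham (left) and SCI (right), with a line of equality and named genes in red. The cloud is flatter than the line of equality, with a fitted slope of 0.66 against sham and 0.77 against SCI. The standard deviation is 0.83 after SCI+FES against 1.01 and 0.96. Cxcl10, Cxcl11 and Mx1 lie near 0 on the vertical axis only, and Prg2 lies above 0 after SCI+FES alone.

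Interferon-induced genes, which cells switch on in response to interferons as part of antiviral defence, differed little between the cultures after SCI+FES. Of 34 detected members 3 were higher in osteoclasts and 1 lower after SCI+FES, with a median of 0.20. The same genes had medians of 1.73 in sham and 1.15 in SCI. For 32 of the 34 the signed difference after SCI+FES lay below both, that is, further towards osteoblasts. Over all 8168 genes tested this held for 3006. The 32 include Ifitm3, at -2.77 against -1.06 in sham and -2.47 in SCI. The median of their levels in osteoclasts was 10.75 in sham, 10.01 in SCI and 9.99 after SCI+FES, and in osteoblasts 8.44, 8.59 and 9.64. With a common median over all probes the SCI+FES median was -0.21. The lowest adjusted p of a departure on this list was 0.285.

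Mx1, an antiviral GTPase, read 12.73 and 12.79 on the SCI+FES osteoclast arrays and 12.63 and 12.48 on the osteoblast arrays, a difference of 0.21 ± 0.08. It differed by 3.53 in sham and 2.74 in SCI, where the osteoblast pool means were 10.7 and 10.4. Cmpk2, a mitochondrial nucleotide kinase, differed by 0.15 ± 0.03 against 3.98 and 1.94, and Zbp1, a sensor of nucleic acids, by -0.56 ± 0.13 against 2.85 and 1.65. The 3 members that stayed past the rule were Herc6 (1.14 ± 0.05), Oasl (1.05 ± 0.03) and Ifit3 (1.04 ± 0.06), and all 3 calls ended with a common median over all probes. Ifitm3, a membrane protein that restricts virus entry, was the member lower in osteoclasts. It read 13.74 and 13.68 on the osteoblast arrays and 10.93 and 10.95 on the osteoclast arrays (-2.77 ± 0.03).

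The promoters of Ifit3, Cxcl10 and Ifitm3 are shown because these interferon-induced genes lay on the osteoclast side, near 0 and on the osteoblast side after SCI+FES and all hold the core of the interferon-stimulated response element, GAAANNGAAA. Sequences, build and capitals are as above.
Ifit3: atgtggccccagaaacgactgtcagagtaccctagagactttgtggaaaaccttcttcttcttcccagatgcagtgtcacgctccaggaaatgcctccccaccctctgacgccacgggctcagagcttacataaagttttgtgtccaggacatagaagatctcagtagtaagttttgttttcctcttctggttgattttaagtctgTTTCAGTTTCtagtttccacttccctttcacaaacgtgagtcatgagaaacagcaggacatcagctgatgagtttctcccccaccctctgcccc
Cxcl10: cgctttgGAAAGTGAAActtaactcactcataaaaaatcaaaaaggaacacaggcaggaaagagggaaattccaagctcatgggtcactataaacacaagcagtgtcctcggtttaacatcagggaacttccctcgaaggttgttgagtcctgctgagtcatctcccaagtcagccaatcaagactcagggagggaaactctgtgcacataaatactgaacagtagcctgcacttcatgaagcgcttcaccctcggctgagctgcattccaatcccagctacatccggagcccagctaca
Ifitm3: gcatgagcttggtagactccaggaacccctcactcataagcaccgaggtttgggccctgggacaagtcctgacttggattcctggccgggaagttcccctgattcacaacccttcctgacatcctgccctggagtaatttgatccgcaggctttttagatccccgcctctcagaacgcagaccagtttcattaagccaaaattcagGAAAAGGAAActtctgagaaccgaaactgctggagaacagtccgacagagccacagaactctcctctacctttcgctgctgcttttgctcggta
They lie at chr1:241527076-241527375 (Ifit3, plus strand), chr14:15988816-15989115 (Cxcl10, plus strand) and chr1:205541709-205542008 (Ifitm3, minus strand). The match lay at -44 to -35 in both Ifit3 and Ifitm3, as the reverse complement in the first and as written in the second, and at -243 to -234 in Cxcl10. Of 27 detected interferon genes with a listed promoter 17 held the motif on either strand, against 3.77% of all promoters. This motif was added after the values had been seen.

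Chemokines that interferons induce moved with the interferon genes. Cxcl10, a ligand of Cxcr3, read 11.75 and 11.77 on the SCI+FES osteoclast arrays and 12.05 and 11.76 on the osteoblast arrays, so the pools overlapped. Its difference of -0.15 ± 0.15 compares with 5.29 in sham and 1.89 in SCI. Cxcl11, a ligand of the same receptor, differed by 0.21 ± 0.05 against 5.75 and 2.41. The osteoblast pool mean of Cxcl10 was 8.12 in sham, 9.92 in SCI and 11.9 after SCI+FES, and that of the osteoclast pool 13.4, 11.8 and 11.8. The departures had adjusted p of 0.740 and 0.730.

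Of 22 detected chemokine ligands 3 were higher in osteoclasts after SCI+FES and 5 lower, with a median of -0.15, and 14 and 5 of the members detected there were higher in sham and SCI. The median turned to 0.06 with a common median over genes detected on all arrays and to 0.08 with the deposited processed values. The fit over pools called 2 of the 22 higher and 2 lower. Ppbp, a platelet chemokine (1.65 ± 0.01), Cxcl2, a neutrophil attractant (1.52 ± 0.09), and Ccl6 (1.12 ± 0.08) were higher, the last losing its call with a common median over all probes. Cxcl13, the B cell attractant, read 12.45 and 12.46 on the osteoblast arrays and 8.49 and 8.20 on the osteoclast arrays, a difference of -4.11 ± 0.14 against -1.31 in sham and -1.07 in SCI. Ccl20, a ligand of Ccr6, differed by -2.97 ± 0.23 against -0.26 and -1.07, and Ccl17, a ligand of Ccr4, by -2.25 ± 0.05 against 1.19 and -1.48. Among 12 receptors Ccr1 read 12.40 and 12.35 in osteoclasts against 9.12 and 8.96 (3.34 ± 0.08), and Ccr4 was lower at -1.09 ± 0.18 (at least 1.26-fold). The Ccr4 call ended under 2 other normalisations and without 1 array of either pool.

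Both interleukin-1 genes were higher in osteoclasts in all 3 pairs of pools, by less after SCI+FES. Il1b read 13.18 and 13.32 on the osteoclast arrays and 11.93 and 11.89 on the osteoblast arrays, a difference of 1.34 ± 0.07 against 5.99 in sham and 2.35 in SCI. Il1a differed by 1.14 ± 0.07 against 5.23 and 3.09, and lost its call with a common median over all probes. The osteoblast pool mean of Il1b was 7.80 in sham, 10.8 in SCI and 11.9 after SCI+FES, while the osteoclast means were 13.8, 13.1 and 13.2. Il1r2, the decoy receptor for interleukin-1, read 10.25 and 10.18 in osteoclasts against 8.14 and 8.16 (2.07 ± 0.04), with 0.14 in sham and 1.13 in SCI. Il1rl1, the receptor for interleukin-33, was lower in osteoclasts at -3.76 ± 0.14. Ptgs2, the inducible cyclooxygenase, read 10.93 and 10.95 on the osteoblast arrays and 7.78 and 7.84 on the osteoclast arrays (-3.13 ± 0.04), against 1.08 in sham and -1.84 in SCI.

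Part of the T cell genes were on the osteoblast side. Of 25 detected T and NK cell genes 11 were lower in osteoclasts and 0 higher, with a median of -0.68, against 0.20 in sham and -0.26 in SCI. The fit over pools called 1 of the 25 lower and 1 higher. Cd3d, a chain of the T cell receptor complex, read 9.97 and 9.70 on the osteoblast arrays and 7.57 and 7.70 on the osteoclast arrays, a difference of -2.20 ± 0.15. Its osteoblast pool mean was 6.58 in sham and 7.96 in SCI. Cd8a differed by -2.96 ± 0.10, Cd3g by -2.11 ± 0.04, Cd3e by -1.61 ± 0.05, and the activation markers Tnfrsf4, OX40, and Il2ra by -2.72 ± 0.16 and -2.40 ± 0.19. The adjusted p over pools was 0.0244 for Cd8a, 0.330 for Cd3d, 0.378 for Cd3g and 0.402 for Il2ra. Of the 25 members 7 had a positive difference that did not pass the rule, among them Cd4 (0.90), Lat (0.79) and Prf1 (0.58). The cytotoxic granule gene Nkg7 was at -0.07. Tnfrsf4, Il2ra and Cd3g were the largest of the 69 genes lower after SCI+FES that passed the rule in neither sham nor SCI, with differences of 0.13, 0.04 and 0.22 in sham and -0.67, -0.42 and -0.98 in SCI. In sham neither pool detected Il2ra or Cd3g on both arrays, so their sham values are differences between readings near background. The members counted are those detected after SCI+FES, and 11 of the list were detected in sham and 17 in SCI. The lowest adjusted p of a departure on the list was 0.565.

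**Figure D4:**
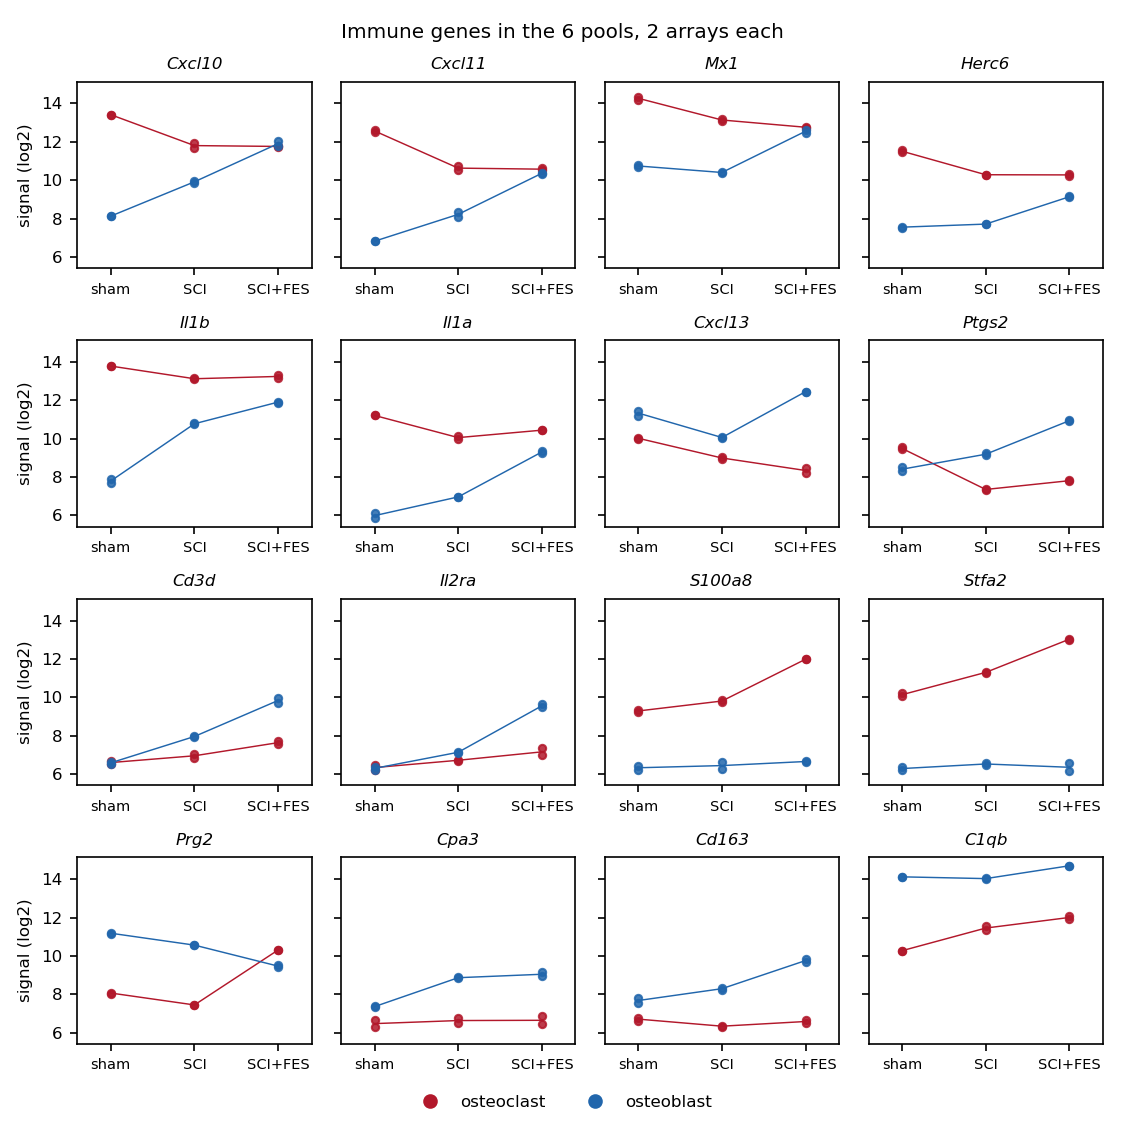
Normalised signal (log2, vertical axis) of 16 immune genes on the 2 arrays (points) of each osteoclast (red) and osteoblast (blue) pool in sham, SCI and SCI+FES, with lines joining pool means. After SCI+FES the cultures meet for Cxcl10 and Mx1, lie apart in favour of osteoblasts for Cxcl13 (12.45 and 12.46 against 8.49 and 8.20) and Cd3d, and cross for Prg2.

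Neutrophil granule genes were on the osteoclast side. Of 10 detected members 7 were higher in osteoclasts and 0 lower, with a median of 2.16, against 0.66 in sham and 0.79 in SCI. The fit over pools called 3 of the 10 higher and 0 lower. The members counted are those detected after SCI+FES, while 9 of the list were detected in sham and 5 in SCI. S100a8, a calcium-binding protein of neutrophils and monocytes, read 11.99 and 11.98 on the osteoclast arrays and 6.66 and 6.64 on the osteoblast arrays, a difference of 5.34 ± 0.01 (at least 36.4-fold), against 2.96 and 3.37. Stfa2, a stefin that inhibits cysteine proteases, differed by 6.68 ± 0.21 against 3.85 and 4.78, and Lcn2, the siderophore-binding lipocalin, by 4.14 ± 0.05 against 3.00 and 4.43. Pglyrp1, a peptidoglycan recognition protein, read 9.18 and 9.24 against 6.04 and 6.32 (3.03 ± 0.14, at least 5.32-fold) and Mmp8, neutrophil collagenase, 8.81 and 8.78 against 6.33 and 6.34 (2.46 ± 0.01, at least 3.98-fold). With Retnlg, a resistin-like gene (2.06 ± 0.09), these were the largest of the 45 genes higher after SCI+FES that passed in neither other pair. The marker genes S100a9 and Ltf were detected on none of the 4 arrays, and the primary granule gene Mpo was at 0.45.

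Of 14 detected eosinophil and mast cell genes 7 were lower in osteoclasts and 0 higher, with a median of -0.94. The fit over pools called 4 of the 14 lower and 0 higher. Prg2, the major basic protein of eosinophil granules, read 10.33 and 10.29 on the osteoclast arrays and 9.53 and 9.39 on the osteoblast arrays, a difference of 0.84 ± 0.07 that did not pass the rule. In both sham and SCI it was -3.12, and this departure, 3.96, was the largest upward one among genes called in any pair, with the lowest adjusted p of all genes (0.239). Ear11, an eosinophil-associated ribonuclease, moved alike, from -1.95 and -2.18 to 0.53 ± 0.13 (adjusted p 0.285). Among mast cell genes Cpa3, mast cell carboxypeptidase, read 9.16 and 8.92 on the osteoblast arrays and 6.43 and 6.84 on the osteoclast arrays (-2.40 ± 0.24, at least 4.19-fold). Fcer1a, the IgE receptor chain, differed by -1.52 ± 0.04 (at least 1.99-fold) and Hdc, histidine decarboxylase, by -1.34 ± 0.18. Cma1 (-0.83), Gata2 (-0.60) and Mcpt8 (-0.23) did not pass the rule, and the markers Ms4a2 and Kit were detected on none of the 4 arrays.

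Macrophage genes did not take 1 direction. Of 26 detected members 4 were higher in osteoclasts and 5 lower, with a median of 0.03 that turned to -0.17 with a common median over all probes. The 3 chains of complement C1q were lower in osteoclasts. C1qb read 14.69 and 14.70 on the osteoblast arrays and 11.94 and 12.07 on the osteoclast arrays (-2.70 ± 0.07, adjusted p over pools 0.00304), and C1qc and C1qa differed by -2.67 ± 0.10 and -2.47 ± 0.06. Cd163, the haemoglobin scavenger receptor, read 9.69 and 9.82 against 6.48 and 6.68 (-3.18 ± 0.12), with -0.97 in sham and -1.96 in SCI, and the complement receptor gene Vsig4 differed by -3.21 ± 0.18. Higher in osteoclasts were the scavenger receptor gene Cd36 (1.71 ± 0.21), Gpnmb (1.14 ± 0.07), Ccr2 (1.07 ± 0.10) and Itgam (1.05 ± 0.07), of which all but Cd36 lost the call under at least 1 other normalisation. Of 7 detected MHC class II genes 0 passed the rule, with a median of -0.49.

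Part of the genes of DNA replication and mitosis were lower in osteoclasts. Of 30 detected members 15 were lower and 0 higher, and their median was -0.98, against -0.18 in sham and -0.52 in SCI, where 1 and 10 of the members detected there were lower. The fit over pools called 2 of the 30 lower and 0 higher. Prc1, a regulator of cytokinesis, read 10.91 and 10.98 on the osteoblast arrays and 9.13 and 9.04 on the osteoclast arrays (-1.86 ± 0.06), and Rrm2, a ribonucleotide reductase subunit, and Cdc20, an activator of mitotic exit, differed by -1.70 ± 0.08 and -1.69 ± 0.05. The replication genes Mcm2 (-0.33), Mcm6 (-0.41), Pcna (-0.75) and Tyms (-0.74) and the other subunit gene Rrm1 (0.03) did not pass the rule. Neither did the proliferation and mitosis genes Mki67 (0.06), Aurka (-0.57), Kif22 (-0.78) and Bub1b (-0.94). The list's median level in osteoclasts was 8.03 in sham, 8.73 in SCI and 8.83 after SCI+FES, and in osteoblasts 8.38, 9.63 and 9.91. The lowest adjusted p of a departure was 0.627.

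Respiratory chain genes leaned towards osteoclasts by small amounts. All 33 detected subunits had a positive difference, with a median of 0.52, while 4484 of all 8168 genes tested had one. Of the 33, 2 passed the rule, Sdha (1.16 ± 0.05) and Ndufv1 (1.01 ± 0.15), and neither did so with a common median over all probes. That setting shifted the median over all genes tested from 0.05 to -0.31, so the size of this lean depends on the scaling. The median of the subunits was 0.56 in sham and 0.67 in SCI. Of 23 glycolysis and hypoxia genes 5 were higher and 2 lower. The lactate exporter gene Slc16a3 (1.31 ± 0.04) and the hexokinase gene Hk3 (1.22 ± 0.10) were higher, and adrenomedullin, Adm (-1.59 ± 0.04), and Hif1a (-1.01 ± 0.06) were lower. The calls of Hk3 and of the enolase genes Eno1 and Eno2 ended with a common median over all probes, and that of Hif1a without 1 osteoclast array. Of 18 adipocyte and lipid genes 3 were higher and 0 lower, namely Dgat2, which makes triglycerides (2.83 ± 0.06), the fatty acid binding protein Fabp4 (2.35 ± 0.02) and Cd36. The fat hormone genes Adipoq and Lep and the lipid droplet gene Plin1 were detected on none of the 4 arrays.

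**Figure D5:**
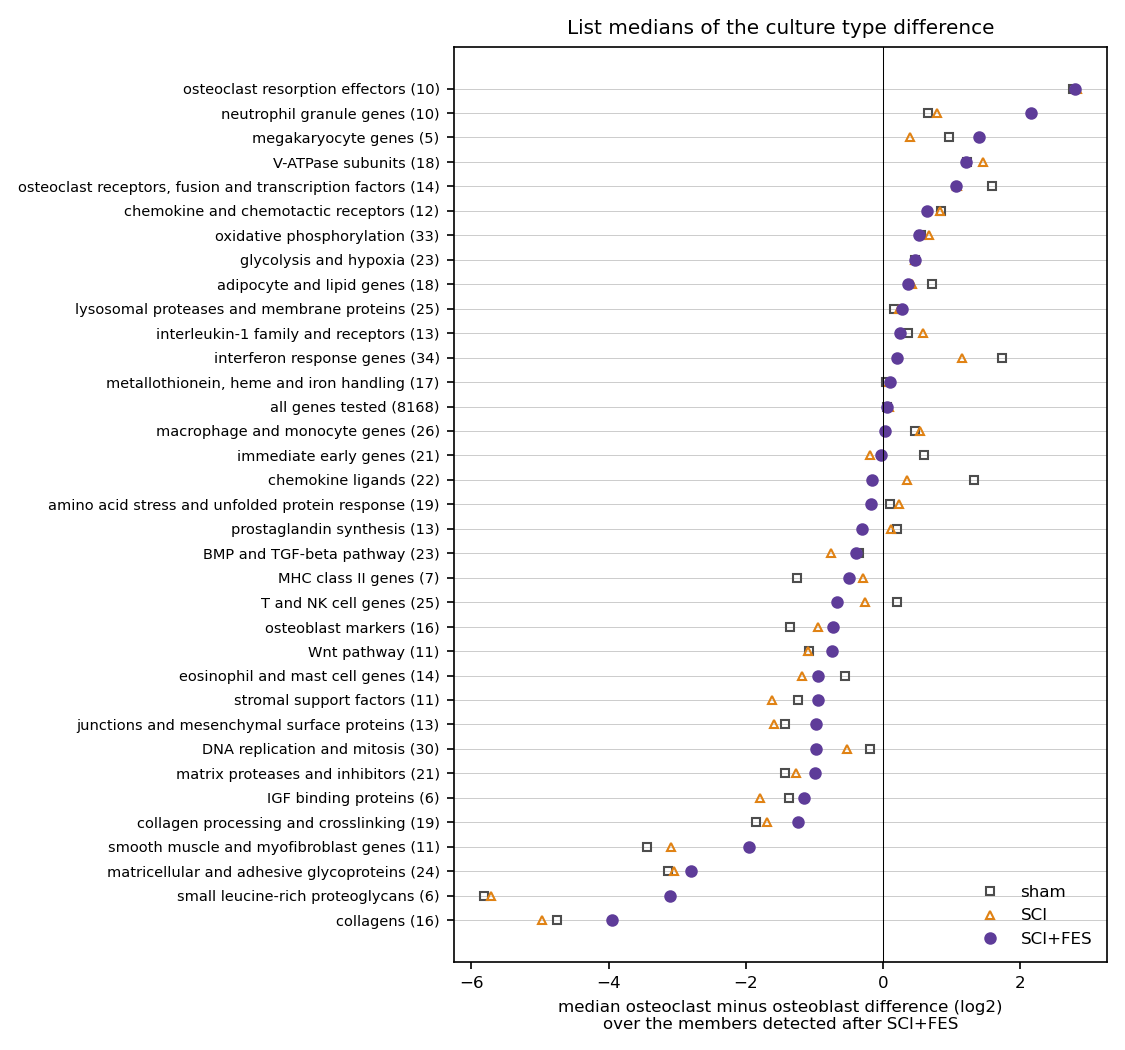
Median osteoclast minus osteoblast difference (log2) of the lists with at least 5 members detected after SCI+FES (number in parentheses), for SCI+FES (filled circles), sham (squares) and SCI (triangles) over the same genes. The resorption effectors coincide at 2.80, 2.77 and 2.83, while the small leucine-rich proteoglycans (-3.11 against -5.82 and -5.71), interferon genes (0.20 against 1.73 and 1.15) and neutrophil genes (2.16 against 0.66 and 0.79) stand apart.

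Red cell genes were on the osteoclast side, with Hba-a2, alpha globin, at 9.86 and 10.06 on the osteoclast arrays and 6.23 and 6.12 on the osteoblast arrays (3.78 ± 0.11, at least 8.91-fold), Hbb, beta globin, at 3.07 ± 0.18 and the transferrin receptor gene Tfrc at 1.20 ± 0.15. The Tfrc call ended with a common median over all probes. The globin differences were 5.46 and 4.38 in sham and 4.14 and 3.19 in SCI. The erythroid markers Alas2 and Klf1 were detected on none of the 4 arrays. Of 5 megakaryocyte genes 3 were higher and 0 lower, Gp9 (1.66 ± 0.13, at least 1.96-fold), Ppbp and Nfe2 (1.40 ± 0.14, at least 2.16-fold). Of 17 metal and heme genes 4 were higher and 1 lower, the iron exporter gene Slc40a1 (-1.51 ± 0.06). Of the 4, Mt3 alone kept its call with a common median over all probes, where Hmox1, Slc11a1 and Tfrc lost it. Among 21 immediate early genes 5 were lower and 0 higher, with Ccn1 at -3.90 ± 0.07, the phosphatase gene Dusp1 at -2.54 ± 0.02 and Egr1 at -1.68 ± 0.07. Of 19 genes of amino acid stress and the unfolded protein response 1 passed the rule, Phgdh (-1.10 ± 0.06).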

How the data were processed

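The deposited table gives, per the file headers, an average signal intensity with its detection p-value for 22523 probes on 12 arrays. Between 26.8% and 30.4% of the deposited intensity values of an array were below 0, so background had been subtracted before deposit. What software scanned the arrays is not given in the sources used here. A second deposited set of intensity values from the authors was a straight-line rescaling of these signals on each array and served as an alternative. Signals were corrected by normexp with an offset of 50, quantile normalised over 12 arrays and put on the log2 scale (R 4.3.3, limma 3.58.1). Tables were made in Python 3.11.15. The brightest probe stood for a gene, which gave 21578 genes. Of the probes, 10291 carried a current symbol, 4146 an older symbol updated through the reference table, 7969 the symbol of the file and 117 none.

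Limma (lmFit, eBayes, Benjamini-Hochberg adjustment) was fitted to the 6 pool means, for osteoclast against osteoblast pools and for the departure of the SCI+FES difference. The comparison within SCI+FES used the rule of size. For the bound of a fold, an array that did not detect the gene took the higher of its own value and the lowest signal of a detected probe. The rule and the fits were run on simulated arrays with a fixed spread between pools and every gene detected, unlike these data. The outcome is not reported here. How often the departure fit would find a real departure in these data was not tested. Named were the 15 largest differences each way, the 4 largest per list and direction past the rule, 22 defining genes (17 with a probe), the 10 largest departures each way and the 3 largest calls each way found after SCI+FES alone, 174 genes in all. The 38 lists (903 genes, 788 with a probe, 564 detected after SCI+FES) and all rules were chosen with earlier results of these data known. Slc4a2, Clcn7, Ostm1, Mmp14, Atp6v0d1, Atp6v0a1, Ctsb, Ctss, Ctsl, Lamp1, Lamp2, Mt1, Mpo, Trem2, Irf7, Cd4, Lat, Prf1, Nkg7, Mcm2, Mcm6, Pcna, Tyms, Rrm1, Mki67, Aurka, Kif22, Bub1b, Cma1, Gata2, Mcpt8, Ms4a2 and Kit fall outside this rule and were chosen after their values were seen. Duplicate arrays of 1 pool measure technical spread only, and their number limits the precision. Some genes that meet the rule are not reported here.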

Additional observations from a re-analysis of the deposited data

Results flagged for a closer look

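For 5 genes the culture type difference had opposite signs after SCI+FES and in sham, with both pairs of pools past the rule of size and every array on its side. Ptgs2, the inducible cyclooxygenase, was at -3.13 after SCI+FES and at 1.08 in sham. Ccl17, a chemokine, was at -2.25 after SCI+FES and at 1.19 in sham. Smpd3, a sphingomyelinase of mineralising matrix, was at 1.20 after SCI+FES and at -1.73 in sham, and its SCI+FES call ended with a common median over all probes. Cks2, a partner of cyclin-dependent kinases, was at -1.28 and 1.19, and LOC290071 at -1.50 and 1.43. Cks2 and LOC290071 fall outside the rule for named genes. In SCI the differences were -1.84 for Ptgs2, -1.48 for Ccl17, -0.93 for Smpd3, -0.71 for Cks2 and -0.21 for LOC290071. The limma test of a departure from the mean of sham and SCI gave adjusted p from 0.577 to 0.774 for the 5 genes. The difference between SCI+FES and sham alone was not tested.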

How the results depend on the processing

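The rule of size called 372 genes higher and 577 lower in osteoclasts after SCI+FES. With log2 of the signal plus 16 it called 640 and 908, and with a common median over all probes 177 and 883. Leaving out 1 SCI+FES array at a time gave 376 to 386 higher and 563 to 584 lower. Under the other alternatives both counts stayed within 1.5 times. The fit over pools called 434 genes higher and 590 lower. It called 693 higher with log2 of the signal plus 16, and 196 higher and 294 lower without the SCI pools. With treatment as a block it called 440 and 616. No paired analysis by replicate number was possible because the numbers only count duplicate arrays of 1 pool. Tests of departure gave 0 calls, 9 with a common median over all probes and 1 without a detection filter. Of the 157 named genes past the rule 0 changed sign under the alternatives run, 22 lost the call with a common median over all probes and at most 7 under any other. The causes were not tested. Genes near the background, such as Tnfsf11, have bounds only.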
